A study of Mus musculus with 18 samples.

Results

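The genes described here were 8 components of the DNA damage checkpoint and repair machinery of the mouse oocyte: the kinases *Atm*, *Atr*, *Chek1* and *Chek2*, the transcription factors *Trp63* and *Trp53*, and the recombination mediators *Brca1* and *Brca2*. They were chosen by gene symbol and followed by Ensembl identifier, and all 8 were found among the 28252 genes with a length-normalised value and the 53715 genes with a read count. RNA had been sequenced from F1 females of the cross C57Bl/6j x CBA/J in 6 groups of 3 libraries, 18 libraries in all. Oocytes of primordial follicles (flat pregranulosa cells) and of primary follicles (one layer of cuboidal granulosa cells) were cut by laser-capture microdissection (LCM) from fixed, paraffin-embedded ovaries, taken from 14-day-old mice (*in vivo*) or from 7-day-old mice and then cultured for 7 days (*in vitro*). Metaphase II (MII) oocytes, the mature eggs, came from superovulated adult females (*in vivo*) or from ovaries of 7-day-old mice cultured for 7 days, whose secondary follicles were then grown in alginate for 12 days and induced with hCG (*in vitro*). The *in vitro* groups share the culture medium, serum and rFSH as well as the culture itself, and the study compared them with the *in vivo* groups to ask how culture alters the oocyte at each stage. Oocytes were pooled, and no label ties a library to one animal or culture, so the p-values below measure the spread between these libraries, which may be technical.

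An oocyte rests in meiotic prophase for most of its life and must keep its genome intact over that time. ATM and ATR are the apical kinases that sense double-strand breaks and single-stranded DNA, CHEK2 and CHEK1 carry their signals onward, and TAp63, a product of *Trp63*, is the p53-family factor that decides the death of damaged oocytes in small follicles, where p53 itself has a lesser part. BRCA1 and BRCA2 act on the repair side, BRCA1 in the resection of broken ends and BRCA2 in the strand exchange of homologous recombination, and CHEK1 also restrains entry into meiotic M phase.

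The LCM libraries held 15149564 to 29205503 assigned reads and the MII libraries 7334817 to 9978830. Of 12 oocyte markers, 0 to 2 were at 0 in each LCM library and 0 or 1 in each MII library. Their summed level was 325 to 1949 TPM (transcripts scaled by gene length and library) in the LCM libraries and 10431 to 21014 TPM in the MII libraries. Most of the MII sum was *Gdf9* (4976 to 14549 TPM) and *Oosp1* (3734 to 5564 TPM), so it does not measure oocyte content. *Ddx4* was lower in MII oocytes *in vivo* (13.4 to 34.8 TPM) than in primordial oocytes *in vivo* (274 to 421 TPM), and *Zp1* and *Figla* overlapped between LCM and MII libraries. Somatic markers were also present in the LCM libraries. There 10 granulosa markers summed to 42.9 to 896 TPM (primordial *in vivo*), 375 to 2164 TPM (primordial *in vitro*), 75.1 to 798 TPM (primary *in vivo*) and 1131 to 2406 TPM (primary *in vitro*), with 1 to 6 of the 10 at 0. In MII libraries the granulosa markers summed to 25.3 to 72.7 TPM (2 to 8 at 0). Most of that sum was *Cyp19a1*, at 26.0 to 64.7 TPM *in vivo* and 17.5 to 41.4 TPM *in vitro*. The 8 theca and stroma markers summed to 421 to 29373 TPM in LCM libraries (0 to 4 at 0). The top of that range was primary *in vivo* library 2 alone (*Acta2* 18521 TPM, *Col1a1* 9734 TPM). The next highest LCM sum was 3402 TPM. Within its group, library 2 also had the highest *Atm*, *Chek1*, *Chek2* and *Trp53* and the lowest *Trp63* and *Brca1*. Its *Atr* and *Brca2* lay between those of the other libraries. In MII libraries the theca and stroma markers summed to 0.158 to 4.11 TPM (3 to 7 at 0). Endothelial markers summed to 0 to 566 TPM and immune markers to 0 to 8.04 TPM in LCM libraries, and to 46.1 to 103 TPM and 0 to 12.4 TPM in MII libraries. The top LCM endothelial sum was *Tek* alone (566 TPM, the first primordial *in vitro* library). Most of the MII endothelial sum was *Pecam1* (35.2 to 95.1 TPM), while *Cdh5* was at 0 in every MII library. The part of these other cells in the values below was not tested, and in bulk RNA fewer cells of a type and less RNA per cell cannot be told apart. LCM and MII libraries were also made with different kits, exon capture after whole-transcriptome amplification against Smart-seq, so that stage and kit cannot be told apart, and levels across this divide are given as descriptions without a test.

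The counts behind the members were uneven in the LCM libraries. Of 96 LCM values (8 genes in 12 libraries), 15 were at or under 3 reads, the number taken as the limit of detection, and in only 3 of the 12 libraries did all 8 genes exceed it. In MII oocytes 2 of 48 values were at or under 3 reads, both of *Chek2*, and 4 of 6 libraries had all 8 genes above it. A count of 3 reads corresponded to 0.103 to 0.198 CPM (counts scaled to library size) in LCM libraries and 0.301 to 0.409 CPM in MII libraries, a limit that covers counting error only.

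**Figure D1:**
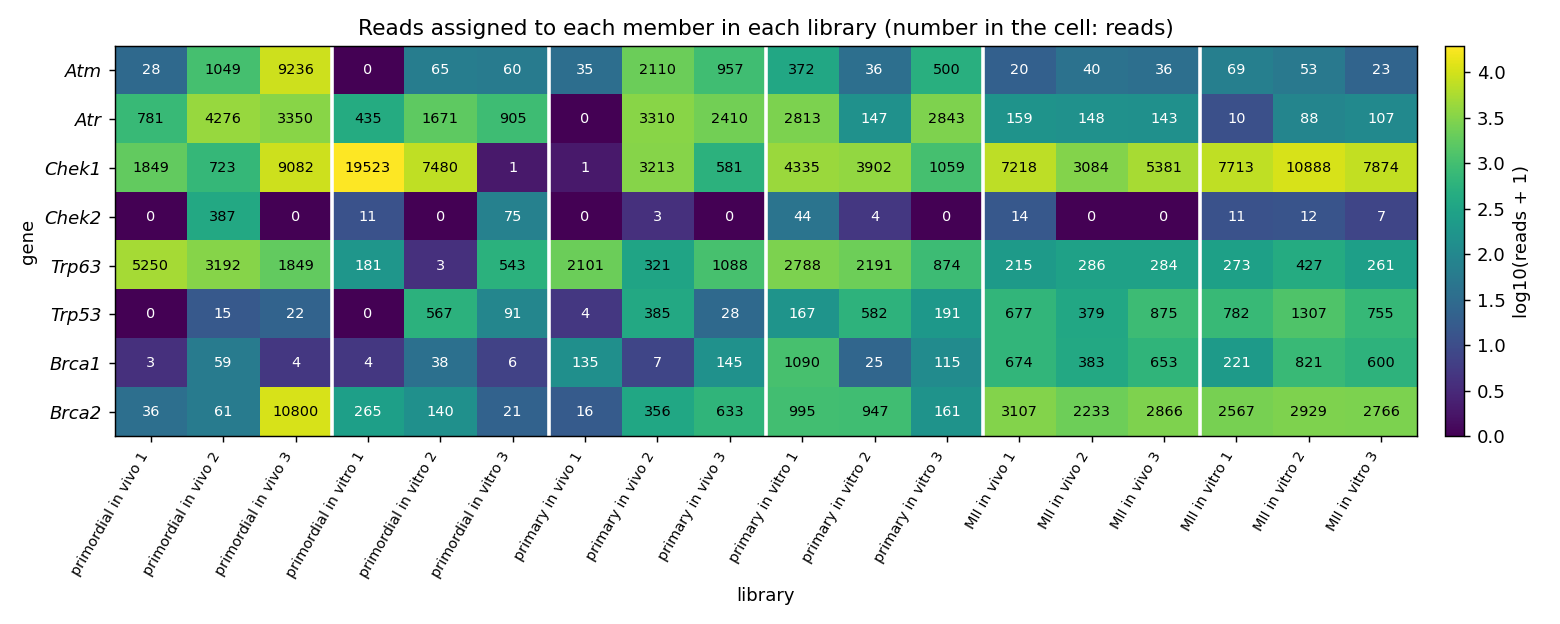
Reads assigned to each of the 8 genes (rows) in each of the 18 libraries (columns, 3 per group, groups separated by white lines); colour is log10(reads + 1) and the number in each cell is the read count. In the LCM columns a gene passes from 0 or 1 read to a high count between libraries of one group, as *Chek1* does from 1 to 19523 reads in primordial oocytes *in vitro*, whereas the MII columns vary less along each row, except for *Chek2* and for the low first *in vitro* library of *Atr* and *Brca1*.

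Annotated positions are those of GRCm38 (mm10). *Atm* lies on chromosome 9 (53439149 to 53536740, minus strand), *Atr* on chromosome 9 (95857597 to 95951781, plus), *Chek1* on chromosome 9 (36708482 to 36727065, minus) and *Chek2* on chromosome 5 (110839979 to 110874145, plus). *Trp63* lies on chromosome 16 (25683763 to 25892102, plus), *Trp53* on chromosome 11 (69580359 to 69591873, plus), *Brca1* on chromosome 11 (101488764 to 101551955, minus) and *Brca2* on chromosome 5 (150522630 to 150570329, plus). The values are sums over each whole gene. For *Trp63* they join 4 annotated transcripts that start at the upstream promoter, which gives the TA forms, with 4 that start 118151 bases further on, which gives the ΔN forms, so the TAp63 of oocytes was not separated here. *Atr*, *Trp63* and *Brca2* overlap other annotated genes on the opposite strand, and each also overlaps 1 on its own strand. The strand setting of the counting is not given in the sources used here, and their reads could include some from those genes.

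Promoter windows (RefSeq, GRCm38.p6, 250 bases before to 50 after each start) were matched for 7 members, all but *Trp63*. The box TTTCCCGC, the core of many E2F sites of replication and repair genes, was searched on both strands and occurred in 1.07% of all 32851 windows, and among the members in those of *Chek2* and *Brca2*. CCAAT, read on both strands, was in 37.4% of all windows and in those of *Atm*, *Chek2*, *Trp53* and *Brca1*, and no copy of it overlapped the E2F-type box. The stretches of 100 bases around the box are shown because the genes that share it lay far apart in level in MII oocytes. By mean TPM over the 6 MII libraries, *Brca2* was among the highest of the 8 and *Chek2* the lowest, though the *Chek2* range overlapped those of *Atr* and *Atm*. Capitals mark the box, which in both genes reads GCGGGAAA on the gene's strand, 152 bases before the start in *Chek2* and 168 in *Brca2*. A match of letters shows no binding.
*Chek2* (chr5:110839785-110839884, plus strand): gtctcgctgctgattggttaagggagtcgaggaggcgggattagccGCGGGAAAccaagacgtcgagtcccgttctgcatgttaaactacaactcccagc
*Brca2* (chr5:150522407-150522506, plus strand): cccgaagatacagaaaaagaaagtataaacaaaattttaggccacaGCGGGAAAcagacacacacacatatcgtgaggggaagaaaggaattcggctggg

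Among the 8 genes, *Chek1* had the highest group mean TPM in all 6 groups, and it was the top member in 7 of 12 LCM libraries and 6 of 6 MII libraries, *Trp63* being the top in the other 5. In MII oocytes the mean levels, in TPM ± SD over 6 libraries, were 431 ± 152 for *Chek1*, 58.1 ± 7.36 for *Brca2*, 56.2 ± 20.6 for *Trp53* and 19.2 ± 7.49 for *Brca1*. They were 10.1 ± 2.65 TPM for *Trp63*, 1.39 ± 0.734 for *Atr*, 1.10 ± 0.420 for *Atm* and 0.672 ± 0.560 for *Chek2*. *Chek1* stood above all others in every MII library, while the ranges of *Brca2* and *Trp53* overlapped, as did those of *Brca1* and *Trp63* and those of *Atr*, *Atm* and *Chek2*. The lowest *Trp53* value (31.4 TPM) lay above the highest of *Brca1* (27.3 TPM), and the lowest of *Trp63* (7.21 TPM) above the highest of *Atr* (2.10 TPM).

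**Figure D2:**
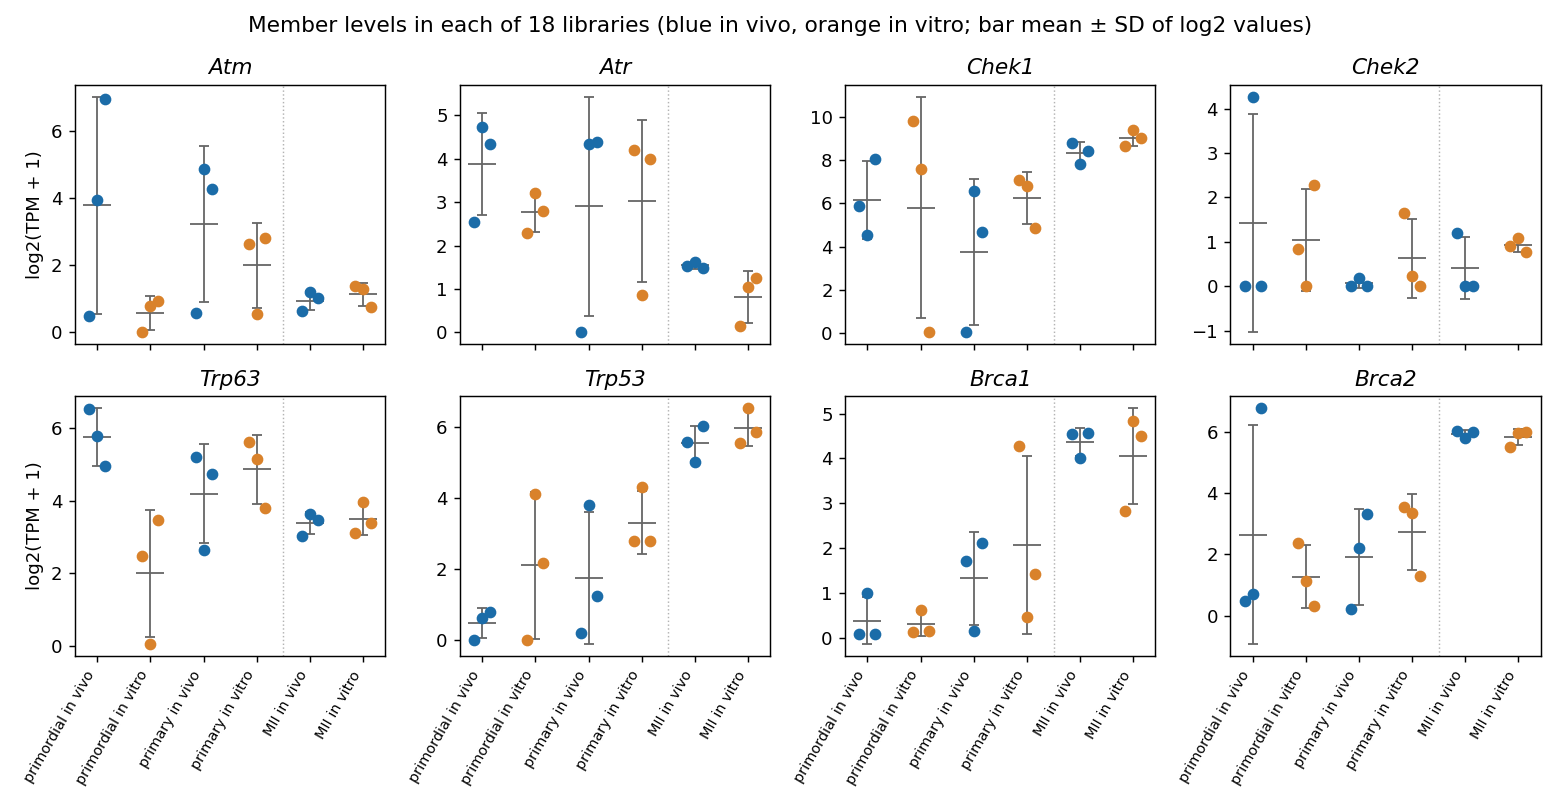
Level of each gene, log2(TPM + 1), in each library (points; blue *in vivo*, orange *in vitro*) of the 6 groups, with the mean ± SD of the log2 values as bars, n = 3; the dotted line separates LCM from MII libraries. *Trp53* lies higher in every MII library than in any LCM library, *Trp63* in primordial oocytes does not overlap between growth conditions, and the spread within LCM groups is wide for all 8 genes.

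*Atm*, the kinase activated by double-strand breaks, was low and even in MII oocytes and scattered in small-follicle oocytes. In primordial oocytes it was at 0.394, 14.4 and 121 TPM *in vivo* and at 0, 0.738 and 0.902 TPM *in vitro*. In primary oocytes it was at 0.487, 27.95 and 18.1 TPM *in vivo* and at 5.21, 0.461 and 6.02 TPM *in vitro*. In MII oocytes it was at 0.544, 1.30 and 1.03 TPM *in vivo* and at 1.58, 1.46 and 0.682 TPM *in vitro*. The third primordial *in vivo* library alone held 61.9% of the summed *Atm* level of the 12 LCM libraries, and the first library of each LCM *in vivo* group was within the range of the cultured ones, so that the growth conditions overlapped at every stage. With edgeR's quasi-likelihood test the log2 fold change, *in vitro* over *in vivo*, was -6.61 ± 3.45 (SE) in primordial oocytes (Benjamini-Hochberg adjusted p = 0.433) and -2.25 ± 2.83 in primary oocytes (adjusted p = 0.929). Without the third primordial *in vivo* library the primordial estimate was -3.50. DESeq2, which gave -6.93 (adjusted p = 0.0133), called this difference, and it was the 1 call of any member by any tool. In MII oocytes the log2 fold change was 0.51 ± 0.77 by edgeR (adjusted p = 0.878).

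*Atr*, the kinase that answers to replication stress and resected DNA, showed no overlap between growth conditions in MII oocytes, though at low counts. Its levels were 1.89, 2.10 and 1.79 TPM *in vivo* (159, 148 and 143 reads) and 0.10, 1.06 and 1.39 TPM *in vitro* (10, 88 and 107 reads). All 3 *in vitro* libraries were below all 3 *in vivo* libraries, and the first *in vitro* library stood lowest. The edgeR log2 fold change was -1.26 ± 0.68 (95% interval -2.73 to 0.21, adjusted p = 0.510), or -0.76 without that library. *Atr* was the 1 member of 8 whose MII groups did not overlap in TPM, where 14.8% of the 17016 genes compared did not overlap in either direction. In primordial oocytes *Atr* was at 4.81, 25.7 and 19.2 TPM *in vivo* and at 3.90, 8.30 and 5.95 TPM *in vitro*. In primary oocytes it was at 0, 19.2 and 19.9 TPM *in vivo* and at 17.2, 0.823 and 14.97 TPM *in vitro*. The groups overlapped at both stages, and every small-follicle library but 2 (the first primary *in vivo* and the second primary *in vitro*) was above every MII library in TPM. Log2 fold changes by culture were -1.42 ± 2.603 in primordial and -0.50 ± 2.56 in primary oocytes (edgeR, adjusted p = 0.948 and 1).

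*Chek1*, the effector kinase downstream of ATR, was the most abundant member. In MII oocytes it was at 438, 223 and 343 TPM *in vivo* and at 394, 667 and 521 TPM *in vitro*. The ranges overlapped through the first library of each group, and the log2 fold change was 0.65 ± 0.36 (95% interval -0.12 to 1.43, edgeR adjusted p = 0.512). In primordial oocytes it was at 58.0, 22.1 and 266 TPM *in vivo* and at 893, 189 and 0.0335 TPM *in vitro*, and in primary oocytes at 0.0310, 94.9 and 24.5 TPM *in vivo* and at 135, 111 and 28.4 TPM *in vitro*. The highest and almost the lowest of all 18 values fell in the same group, since the first primordial *in vitro* library had 19523 reads and the third had 1. The first primary *in vivo* library also had 1 read. The culture difference, in log2, was 1.54 ± 1.99 in primordial and 1.09 ± 1.97 in primary oocytes (edgeR adjusted p = 0.849 and 1.00), and the primordial value became -0.48 without the first *in vitro* library.

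*Chek2*, the kinase that in oocytes passes the ATM signal to TAp63 and p53, was scarcely counted anywhere. It had 0, 387 and 0 reads in primordial oocytes *in vivo* and 11, 0 and 75 *in vitro*. In primary oocytes it had 0, 3 and 0 reads *in vivo* and 44, 4 and 0 *in vitro*. In MII oocytes it had 14, 0 and 0 reads *in vivo* and 11, 12 and 7 *in vitro*, 44 reads in all. Only the second primordial *in vivo* library exceeded 100 reads (18.3 TPM), and it held 72.0% of the summed TPM of the 12 LCM libraries. In primary oocytes *in vivo* no library passed 3 reads, and against that limit, set in each library, the mean CPM *in vitro* was at least 4.85-fold higher (edgeR adjusted p = 0.836). That bound rested on the first *in vitro* library, without which the fitted log2 fold change went from 3.52 to 0.95. In MII oocytes the log2 fold change was 0.92 ± 1.90 (95% interval -3.16 to 5.01, adjusted p = 0.917) and in primordial oocytes -1.70 ± 3.09 (adjusted p = 0.947). The MII value was 6.32 without the first *in vivo* library, and the primordial value was 8.08 without the second *in vivo* library.

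*Trp63* was the member whose primordial groups did not overlap. It was at 91.0, 53.9 and 29.9 TPM in primordial oocytes *in vivo* (5250, 3192 and 1849 reads) and at 4.57, 0.0420 and 10.1 TPM *in vitro* (181, 3 and 543 reads). The lowest *in vivo* library was thus well above the highest *in vitro* library, and of all genes compared 6.52% did not overlap in either direction here. That share, like the other LCM shares of this kind below, includes genes without reads in either group, which cannot fail to overlap. Means after scaling were 147 ± 68.8 CPM *in vivo* and 13.1 ± 13.1 CPM *in vitro* (SD, n = 3). The edgeR log2 fold change was -3.48 ± 2.85 (95% interval -9.08 to 2.11, unadjusted p = 0.223, Benjamini-Hochberg adjusted p = 0.639), from -4.48 to -2.90 with each library of the 2 groups left out. The granulosa marker sum was 673, 896 and 42.9 TPM in the same *in vivo* libraries and 375, 579 and 2164 TPM *in vitro*. The oocyte marker sum was 388, 832 and 448 TPM *in vivo* and 325, 1949 and 414 TPM *in vitro*. That sum joins markers that moved apart. *Zp1* was at 1.37 to 38.4 TPM *in vivo* and 49.8 to 322 TPM *in vitro*. The median of *Ddx4* was 286 TPM *in vivo* and 68.1 TPM *in vitro*, and that of *Nobox* 7.54 and 2.08 TPM, with overlapping ranges. The part of either sum, or of any single marker, in the difference was not tested.

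In primary oocytes *Trp63* was at 36.0, 5.24 and 25.3 TPM *in vivo* and at 48.1, 34.5 and 12.96 TPM *in vitro*, with overlapping groups. The log2 fold change was 0.13 ± 2.59 (edgeR adjusted p = 1), and its sign depended on the scaling, since it was -0.65 with the size factors of DESeq2. All 3 cultured primary libraries were above all 3 cultured primordial libraries (log2 difference 2.43 ± 2.73, edgeR adjusted p = 0.879), where 11.9% of genes did not overlap. The difference between stages in the culture effect, 3.61 ± 3.78 in log2, had an adjusted p of 0.904. In MII oocytes *Trp63* was narrow, at 7.21, 11.4 and 10.0 TPM *in vivo* and at 7.70, 14.4 and 9.54 TPM *in vitro*. The ranges lay across one another there (log2 fold change 0.18 ± 0.38, 95% interval -0.64 to 1.01, edgeR adjusted p = 0.919).

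*Trp53*, encoding p53, was the 1 member that was higher in every MII library than in every LCM library. In MII oocytes it was at 47.1, 31.4 and 63.9 TPM *in vivo* and at 45.8, 91.7 and 57.2 TPM *in vitro*. In primordial oocytes it was at 0, 0.526 and 0.738 TPM *in vivo* and at 0, 16.5 and 3.49 TPM *in vitro*. In primary oocytes it was at 0.142, 13.04 and 1.35 TPM *in vivo* and at 5.98, 19.03 and 5.87 TPM *in vitro*. The highest LCM library was thus at 19.03 TPM and the lowest MII library at 31.4 TPM; of the 25701 genes with any level, 16.1% had every MII library above every LCM library. By culture the log2 fold changes were 3.88 ± 3.56 in primordial, 1.08 ± 3.20 in primary and 0.46 ± 0.36 in MII oocytes (edgeR adjusted p = 0.701, 1 and 0.681), and growth conditions overlapped at each stage.

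*Brca1* had 3 to 7 reads in 5 of the 12 LCM libraries and 25 to 1090 in the other 7, against 221 to 821 reads in MII oocytes. It was at 0.0511, 0.980 and 0.0636 TPM in primordial oocytes *in vivo* and at 0.0994, 0.523 and 0.109 TPM *in vitro*. In primary oocytes it was at 2.28, 0.112 and 3.32 TPM *in vivo* and at 18.5, 0.387 and 1.68 TPM *in vitro*. In MII oocytes it was at 22.2, 15.1 and 22.6 TPM *in vivo* and at 6.13, 27.3 and 21.6 TPM *in vitro*. All but 1 LCM library were below 4 TPM, below all 6 MII libraries, and the exception, the first primary *in vitro* library, held 65.8% of the LCM sum. The log2 fold changes by culture were -0.34 ± 3.17 in primordial, 1.32 ± 3.23 in primary and -0.18 ± 0.43 in MII oocytes (edgeR adjusted p = 1, 1 and 0.930), and the MII groups overlapped, with the lowest value in the first *in vitro* library.

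*Brca2* had the most even levels of the 8 genes in MII oocytes, with a coefficient of variation of 12.7% over the 6 libraries. It was at 64.1, 54.9 and 62.1 TPM *in vivo* and at 44.5, 61.0 and 62.2 TPM *in vitro*, from 2233 to 3107 reads. The log2 fold change was -0.08 ± 0.31 (edgeR adjusted p = 0.962), and its approximate 95% interval, -0.74 to 0.58, lay within a factor of 2 in either direction. In small follicles it was at 0.384, 0.634 and 107 TPM (primordial *in vivo*), 4.12, 1.20 and 0.239 TPM (primordial *in vitro*), 0.169, 3.57 and 9.06 TPM (primary *in vivo*) and 10.6, 9.18 and 1.47 TPM (primary *in vitro*). The third primordial *in vivo* library, with 10800 reads, held 72.6% of the LCM sum and was above every MII library, whereas the other 11 LCM libraries were below every MII library. It set the sign of the primordial difference, -4.49 ± 3.11 in log2 (edgeR adjusted p = 0.528), which was 2.14 without it. In primary oocytes the log2 fold change was 0.66 ± 2.70 (adjusted p = 1).

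**Figure D3:**
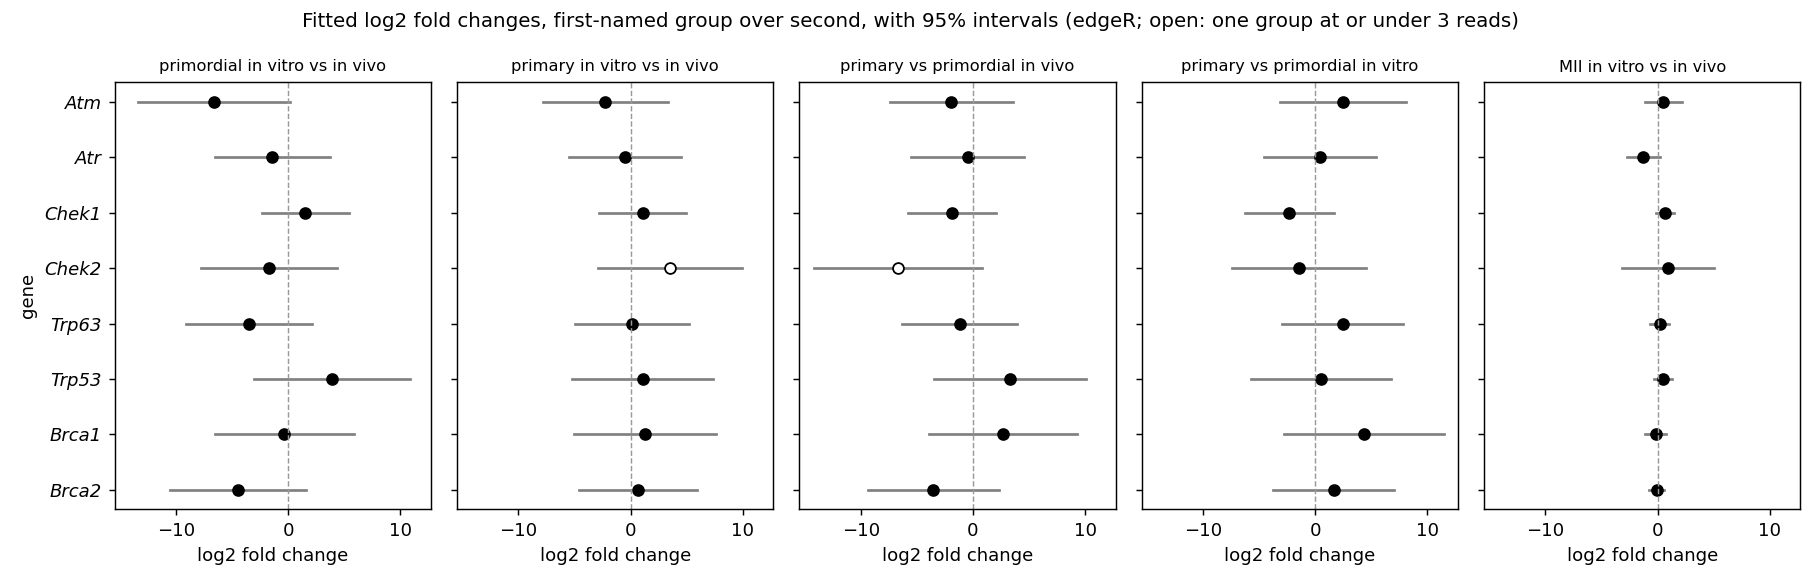
Fitted log2 fold change of each gene (points) with its 95% interval (lines) in 5 comparisons, the first-named group over the second, from edgeR; open points mark *Chek2* where one group had no library above 3 reads, so that its fitted fold change is no bound. All 40 intervals include 0, which restates that no unadjusted edgeR p was below 0.05. Those of MII oocytes are narrower than those of small-follicle oocytes, except that of *Chek2* (-3.16 to 5.01), which is wider than the narrowest of them.

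None of the 8 members was called by edgeR, at an adjusted p below 0.05 and a fold change of at least 2, in any of the 6 tests, and none had an unadjusted p below 0.05. The share of all genes called was 0.0326% for culture in primordial oocytes, 0.0% in primary oocytes and 0.35% in MII oocytes. It was 0.0522% for primary against primordial oocytes *in vivo*, 0.0% for the same stages *in vitro*, and 0.104% for the interaction of growth and stage. DESeq2 called 8.87%, 2.68% and 2.24% of the genes it gave an adjusted p for culture in primordial, primary and MII oocytes. It called 5.91% and 4.73% between the stages *in vivo* and *in vitro*, and 6.3% for the interaction. Among the members it called only *Atm*, for culture in primordial oocytes, 1 of the 7 given an adjusted p there (14.3%). *Brca2* was given no DESeq2 adjusted p in any LCM test and could not be called in them. The standard errors of the members' log2 fold changes were 1.97 to 3.84 in LCM comparisons and 0.31 to 1.90 in MII oocytes, and the intervals of the former spanned 7.72 to 15.04 log2 units, so changes of many fold were not detectable there.

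Between primary and primordial oocytes *in vivo*, the largest difference among members was that of *Chek2*, whose primordial mean rested on 1 library and was at least 38.9-fold higher than the limit of 3 reads in the primary libraries (edgeR adjusted p = 0.486). *Brca2* (-3.51 ± 2.97 in log2, primary over primordial), *Atm* (-1.91 ± 2.80), *Chek1* (-1.85 ± 2.01), *Trp63* (-1.18 ± 2.62) and *Atr* (-0.48 ± 2.56) had negative estimates. *Trp53* (3.33 ± 3.47) and *Brca1* (2.66 ± 3.37) had positive ones, and all had edgeR adjusted p from 0.674 to 1. The value of *Brca2* was 3.12 and that of *Atm* 1.21 without the third primordial *in vivo* library. No member's *in vivo* stages failed to overlap in TPM, where 6.32% of genes did. *In vitro*, the estimates were positive for 6 of 8 members, the exceptions being *Chek1* (-2.30 ± 2.04) and *Chek2* (-1.45 ± 3.06), with the largest for *Brca1* (4.32 ± 3.64, edgeR adjusted p = 0.725, and 1.80 without the first primary library). In that comparison the median of all genes was itself 0.44 and shifted to 0.21 or 0.81 with other scalings, and in primary oocytes by culture it was 0.44, shifting to 0.17 or 0.72. No member's primary groups failed to overlap by culture, against 10.4% of all genes.

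The members were set beside 104 further genes of the damage response in 7 roles. In each LCM library 36 to 91 of the 104 exceeded 3 reads (34.6% to 87.5%, against 17.1% to 41.3% of all genes with a TPM value), and in each MII library 92 to 98 did (88.5% to 94.2%, against 46.5% to 54.4%). The median TPM over the 6 MII libraries was above that over the 12 LCM libraries for 84 of the 104 genes and for 5 of the 8 members, where 49.9% of all genes with any level showed this. *Atm*, *Atr* and *Trp63* were the 3 members with the lower median in MII oocytes. Every MII library was above every LCM library for 28 of the 104 genes (26.9%), against 16.1% of all genes with any level.

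**Figure D4:**
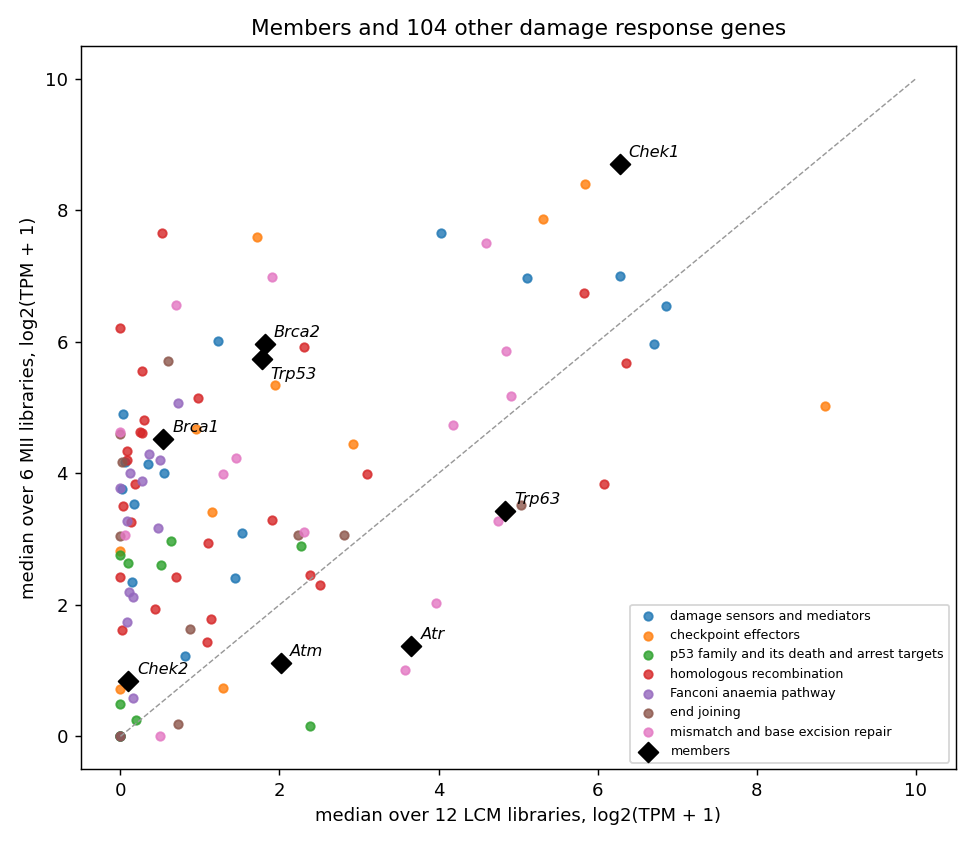
Median level over the 6 MII libraries against the median over the 12 LCM libraries, both as log2(TPM + 1), for the 8 members (black diamonds, named) and 104 other damage response genes (coloured by role); the dashed line marks equal levels. *Chek1* lies at the top right, *Brca1*, *Brca2* and *Trp53* lie above the line, and *Atm*, *Atr* and *Trp63* lie below it, while stage and library kit cannot be told apart on these axes.

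The genes of each role with the highest mean TPM over all 18 libraries are given by their medians in the LCM and MII libraries, whose order can differ from that of the means. Among damage sensors these were *H2afx*, the histone variant phosphorylated around breaks (medians 104 TPM in LCM and 61.6 TPM in MII, with 1 LCM library at 2202 TPM), and *Rad50*, of the complex that recruits ATM (76.5 and 127 TPM). Of the checkpoint effectors, *Plk1*, the kinase that ends the G2 checkpoint, had medians of 56.6 TPM in LCM and 337 TPM in MII, and *Csnk1a1*, a casein kinase, had 462 TPM in LCM and 31.4 TPM in MII. Of the other p53 family members and targets, *Sesn1* (4.197 and 0.119 TPM) and *Bax* (3.81 and 6.40 TPM) had the highest such means, and the medians of the 12 genes of that role centred on 0.0363 TPM in LCM and 0.297 TPM in MII, the lowest of the 7 roles in MII. Of the recombination genes, *Rbbp8*, which starts resection with BRCA1, had medians of 81.3 TPM in LCM and 50.2 TPM in MII, and *Rpa1*, which coats single-stranded DNA, had 56.0 and 106 TPM.

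In the Fanconi anaemia pathway, which unlinks crosslinked strands, *Fancc* (0.657 TPM in LCM and 32.5 TPM in MII) and *Ube2t* (0.288 and 18.6 TPM, with 1 MII library at 139.9 TPM) had the highest means over the 18 libraries. Of its 13 genes, 12 had the higher median in MII, as did 84 of the 104 list genes and 49.9% of all genes with any level. The last share is lowered by genes with a median of 0 in both sets, which count as not above. The ligases *Lig3* (31.9 and 10.5 TPM) and *Lig4* (0.515 and 51.6 TPM) had the highest such means among end-joining genes. *Msh6* (23.3 and 181 TPM), which recognises mismatches, had the highest such mean in the last role. Of genes named after their values were seen, *Palb2*, which joins BRCA1 to BRCA2, lay at 36.9 to 66.9 TPM in MII and at 0 to 8.19 TPM in LCM libraries. *Bard1*, the partner of BRCA1, lay at 7.19 to 14.6 TPM in MII and at 0 to 3.76 TPM in LCM libraries, and *Mdm2*, the ligase that degrades p53, at 105 to 264 TPM and 0.156 to 29.4 TPM. Like *Trp53*, all 3 had every MII library above every LCM library, as did 26.9% of the list and 16.1% of all genes with any level. Because the 3 were named after their values were seen, this is a description only. The LCM and MII libraries overlapped for *Brca1*, *Brca2* and *Mdm4*.

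By culture, edgeR called 0 of the 100 list genes tested in primordial oocytes, with 3 higher and 7 lower at an unadjusted p below 0.05 (10%, against 11.7% of all genes). DESeq2 called 8 of the 69 to which it gave an adjusted p (11.6%, against 8.87% of all genes). Their median log2 fold change was -0.69, or -0.72 with genes at the detection limit in 1 group set to their bound and the 7 at it in both left out. The median of all genes was 0, but genes read only in primary libraries passed the filter and stayed in it. Positive values were held by 36% of the list genes and 42.7% of all genes, so the medians are not like for like. In primary oocytes edgeR called 0 of 100, with 3 higher and 0 lower at an unadjusted p below 0.05 (3%, against 9.66% of all genes), and DESeq2 called 1 of 68 (1.47%, against 2.68%). Their median was 0.26, or 0.29 with bounds, below the 0.44 of all genes. In MII oocytes edgeR called 0 of 98, with 5 higher and 3 lower at an unadjusted p below 0.05 (8.16%, against 10.2% of all genes), and DESeq2 called 1 of 95 (1.05%, against 2.24%). The MII median was 0.04, as for all genes, and the groups of 13 of the 98 genes (13.3%) did not overlap, against 14.8% of all genes. The members' medians were -1.56, 0.87 and 0.32 for primordial, primary and MII oocytes.

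The list gene with the smallest p in MII oocytes, named after its values were seen, was *Lig1*, the ligase that seals replication and excision repair nicks. It was at 6.49 ± 1.83 CPM *in vitro* and 32.8 ± 15.9 CPM *in vivo* (SD, n = 3), lower in 3 of 3 *in vitro* libraries, with a log2 fold change of -2.33 ± 0.52 (edgeR adjusted p = 0.0963). DESeq2 called it (adjusted p = 0.00114). Between stages, edgeR called 0 of 100 list genes both *in vivo* (3 higher and 2 lower at an unadjusted p below 0.05, 5% against 11.2% of all genes) and *in vitro* (7 higher and 1 lower, 8% against 10.9%). DESeq2 called 2 of 72 *in vivo* (2.78%, against 5.91% of all genes) and 2 of 69 *in vitro* (2.90%, against 4.73%).

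The genes whose pattern was most like that of each member, by Pearson's r of log2(TPM + 1) over the 18 libraries among 14160 genes with a mean of at least 1 TPM, were as follows, as a description in which the points share library kit and depth by stage. *Trp53* was nearest to *Rnf185* (0.951), *Mindy1* (0.944) and *Rnf8* (0.939), *Brca1* to *Fa2h* (0.951), *Ivd* (0.950) and *Mcub* (0.949), and *Brca2* to *Zfp46* (0.938), *Dbf4* (0.929) and *Cetn3* (0.922). *Chek1* was nearest to *Ypel5* (0.917), *Trp53bp1* (0.864) and *Sms* (0.854), and *Atr* to *Nav2* (0.900), *Psmc3* (0.872) and *Supt16* (0.862). *Atm* was nearest to *Eml3* (0.941), *Clstn2* (0.879) and *Crocc* (0.871), *Chek2* to *Mecom* (0.905), *Cdk5r1* (0.883) and *Slc38a9* (0.870), and *Trp63* to *Sec62* (0.837), *Thoc2* (0.798) and *Gmds* (0.797). Among the members themselves, r over the 12 LCM libraries ran from -0.47 for *Trp53* with *Trp63* to 0.74 for *Atm* with *Atr*.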

How the data were processed

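RNA from 18 pools of mouse oocytes was sequenced. Per the labels and the study's methods, the authors trimmed reads with Trim Galore 0.4.1, aligned these with TopHat2 to the mm10 genome and obtained gene counts from featureCounts against an Ensembl annotation. They deposited whole-number read counts for 53715 genes and, in a second table, TPM (counts divided by 1 length per gene, each library scaled to a fixed sum) for 28252 of these genes. Groups were taken from the sample titles. Counts were analysed with edgeR 4.0.16 (R 4.3.3): genes with at least 10 reads over the fitted libraries, TMM scaling, robust quasi-likelihood fits with 4 groups over 12 LCM libraries (15317 genes) and 2 groups over 6 MII libraries (17144 genes), and Benjamini-Hochberg adjustment over all genes tested. A gene was called at an adjusted p below 0.05 and a fold change of at least 2. Values after ± are SE for log2 fold changes and SD for levels. The values of DESeq2 1.42.0, of limma 3.58.1 on log2(TPM + 1) and log2(TPM + 0.1), of other scalings and filters, of a replicate block and of leaving out each library are given below.

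The members and lists were chosen with earlier results of these data known. Named in every comparison were all 8 members, from each role the 2 genes with the highest mean TPM (1 of which is not reported here), any list gene called by edgeR (none), and the 3 genes most like each member. Same-numbered libraries did not deviate together (correlations at most 0.0897), so replicate numbers were not treated as pairs. Gene positions come from GENCODE M21.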

Additional observations from a re-analysis of the deposited data

How the results depend on the processing

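The edgeR count of called members stayed at 0 in all 6 tests under every scaling, filter, limma fit, left-out library and the replicate block. DESeq2 called 1 member, *Atm* in primordial oocytes (-6.93), and, of the list, 8 genes for culture in primordial, 1 in primary and 1 in MII oocytes, 2 between stages *in vivo*, 2 *in vitro* and 3 for the interaction. The MII list count was also 1 with no filter, and 0 to 1 with each library left out, the 1 being *Lig1* without the first *in vivo* library. Of 630 alternative values of the members' log2 fold changes over 40 pairs of gene and comparison, 39 changed sign, in 19 pairs, none past the threshold, and the cause was not tested.

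With each library left out in turn, 17 of the 40 pairs changed sign. Their primordial culture values ranged from -0.48 to 3.40 for *Chek1*, -3.57 to 8.08 for *Chek2*, -1.53 to 1.94 for *Brca1* and -5.93 to 2.14 for *Brca2*. The primary ones ranged from -1.09 to 0.031 for *Atr*, -0.36 to 0.97 for *Trp63*, -0.014 to 3.79 for *Trp53* and -1.20 to 1.87 for *Brca1*, and the MII ones from -0.48 to 0.17 for *Brca1* and -0.18 to 0.067 for *Brca2*. Between stages *in vivo* they ranged from -2.69 to 1.21 for *Atm*, -0.93 to 0.11 for *Atr*, -3.61 to 0.013 for *Chek1*, -9.78 to 3.11 for *Chek2* and -4.63 to 3.12 for *Brca2*, and *in vitro* from -4.02 to 0.41 for *Chek2* and -0.57 to 2.46 for *Trp53*. Of the 23 pairs that kept their sign, 19 moved by over 1.5 times, among them *Trp53* in primordial oocytes (1.95 to 4.90) and between stages *in vivo* (0.62 to 4.34), *Chek1* (0.51 to 2.85), *Chek2* (0.95 to 6.64) and *Brca2* (0.10 to 1.78) in primary oocytes, and *Atm* in MII oocytes (0.06 to 0.83).

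The replicate block, over numbers that do not pair the samples, gave 2.95 for *Chek2* in primordial oocytes and 0.50 for *Atm* and 0.24 for *Atr* in primary oocytes, and changed the number of all genes called from 60 to 85 in MII and from 5 to 1 in primordial oocytes. The limma fits reversed *Chek1* in primordial oocytes (-0.35 with a pseudocount of 1, with or without the filter, and -1.31 with 0.1) and between stages *in vitro* (0.45, 0.45 and 1.42), *Atr* in primary oocytes (0.11, 0.11 and 0.88), and *Chek2* in primordial oocytes (0.31 with 0.1). *Trp63* in primary oocytes was -0.65 by DESeq2 and by its size factors in edgeR, and -0.00298 with filterByExpr. Over all genes, edgeR's 60 MII calls became 263 with no filter and 351 by DESeq2, and the 5 in primordial oocytes 774 by DESeq2. With each library left out, the MII count ran from 11 (without *in vitro* library 3) to 378 (without the first *in vivo* library), and the primordial count from 0 (without *in vivo* library 2 or 3) to 3.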
